A study of Mus musculus with 6 samples.

Results

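Regulatory and activated CD4 T cells were taken from a single-cell RNA-seq data set of the CD45+ immune cells of mouse liver, and they came to 380 of 23008 cells. Members were chosen by measured values: a cell was taken when the mean deposited score of 5 genes (Ctla4, Tnfrsf4, Icos, Ikzf2 and Izumo1r) was above 1.5, that of 4 T cell genes (Cd3e, Cd3g, Trac and Trbc2) above 0.5, that of Cd8a and Cd8b1 below 0.5, and that of the B cell gene Cd79a below 1. A score is the log-normalised expression of a gene in a cell, corrected by the authors for the depth of the cell and scaled within a matrix, and 1 matrix held both lines of a site. The livers came from Balb/c mice injected into the heart with 4T07 cells, a mouse mammary tumour line, that carried either a scrambled shRNA in pLKO.1 (Ctrl) or an shRNA against Tim3 (Tim3-KD). Adjacent tissue and micrometastasis were collected on day 3 and macrometastasis on day 12, so site and day differ together between macrometastasis and the other sites. Each of the 6 groups was 1 library of cells from liver pieces of 5 mm by 5 mm, pooled from 2 mice. No test between the lines within a site is therefore possible, none was run across sites, and all intervals given are 95% intervals that cover counting error only.

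Regulatory T cells are CD4 T cells that restrain other lymphocytes, and the transcription factor Foxp3 defines most of them. They take up interleukin 2 through a high-affinity receptor and carry Ctla4, a receptor that competes with Cd28 for its ligands on antigen-presenting cells. Conventional CD4 T cells also take on Ctla4, Icos and the TNF receptors OX40 (Tnfrsf4) and GITR (Tnfrsf18) for a time after stimulation, so these genes mark activated cells too. In tissues and tumours, regulatory T cells are known for an effector programme with Il10, Maf and Gata3.

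The libraries held between 542 and 5502 cells, and between 7086531 and 79971529 UMIs, the molecules counted through their unique identifiers. A member held between 1799 and 68064 UMIs, and the median per library lay between 3969.5 in micrometastasis Tim3-KD and 12001 in adjacent tissue Tim3-KD. Only highly variable genes were in the matrices, and these took up between 9.13% and 15.6% of the UMIs of the members. Of the cell barcodes, 59 occurred in more than 1 library, 4 of these belonged to a member, and none belonged to members of 2 libraries. The adjacent tissue Tim3-KD library stood apart, with the fewest cells and with the neutrophil genes Elane and Ltf at 0 UMIs, against 21923 and 82145 UMIs in adjacent tissue Ctrl. It gave 19 members, under the 20 set as the least for a comparison of genes, so adjacent tissue is described here without ratios between the lines. Because the shRNA acted in tumour cells and these are not in a CD45+ sort, the level of Havcr2 (which encodes Tim3 and lies on the plus strand of chromosome 11, 46454935 to 46481255) does not check the labels. Members had 6.92 CPM of it (4.22 to 10.7).

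The 5 genes of the rule were examined first, as a description, since they chose the members. Their scores were capped at 10, so their levels in members can be lower bounds. How far this bears on the order of the libraries was not tested. Levels are given as CPM, the UMIs of a gene per 1000000 UMIs of the same cells. Ctla4 (chromosome 1, 60887000 to 60915832, plus strand) was at 587 and 409 CPM in adjacent tissue Ctrl and Tim3-KD, at 573 and 391 in micrometastasis, and at 583 and 620 in macrometastasis. The other CD8-low T cells, the 1135 cells that met the rest of the rule but not the 5-gene mean, had 15 CPM. Tnfrsf4, the gene of OX40 (chromosome 4, 156013843 to 156016612, plus strand), was at 444 and 86.0 CPM in adjacent tissue, at 239 and 324 in micrometastasis, and at 309 and 279 in macrometastasis. Ikzf2, the gene of Helios, a transcription factor of many thymus-derived regulatory T cells (chromosome 1, 69531214 to 69687245, minus strand), was at 476 and 151, 353 and 265, and 336 and 407 CPM in the same order. Both genes were lowest in adjacent tissue Tim3-KD, the smallest library. Icos, a costimulatory receptor of the Cd28 family (chromosome 1, 60977927 to 61000320, plus strand), varied less and lay between 299 and 412 CPM. Izumo1r, the gene of folate receptor 4 (chromosome 9, 14885814 to 14903949, minus strand), lay between 133 and 182 CPM. Positions are those of the GENCODE M21 annotation of GRCm38.

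The members were not uniform in these genes. Of the 380 members, 24 had a UMI of 1 rule gene, 117 of 2, 74 of 3, 92 of 4 and 73 of all 5. Icos was found in 79.5% of the members, Ctla4 in 62.4%, Ikzf2 in 62.1%, Izumo1r in 58.2% and Tnfrsf4 in 57.1%. The share of members with 3 or more of the 5 genes was 67.6% for Ctrl and 73.7% for Tim3-KD in adjacent tissue, 55.7% for both lines in micrometastasis, and 69.9% for Ctrl and 64.7% for Tim3-KD in macrometastasis. The interval of each of these shares overlapped those of the other libraries, as from 44.1% to 66.9% in micrometastasis Ctrl and from 58.0% to 80.1% in macrometastasis Ctrl.

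**Figure D1:**
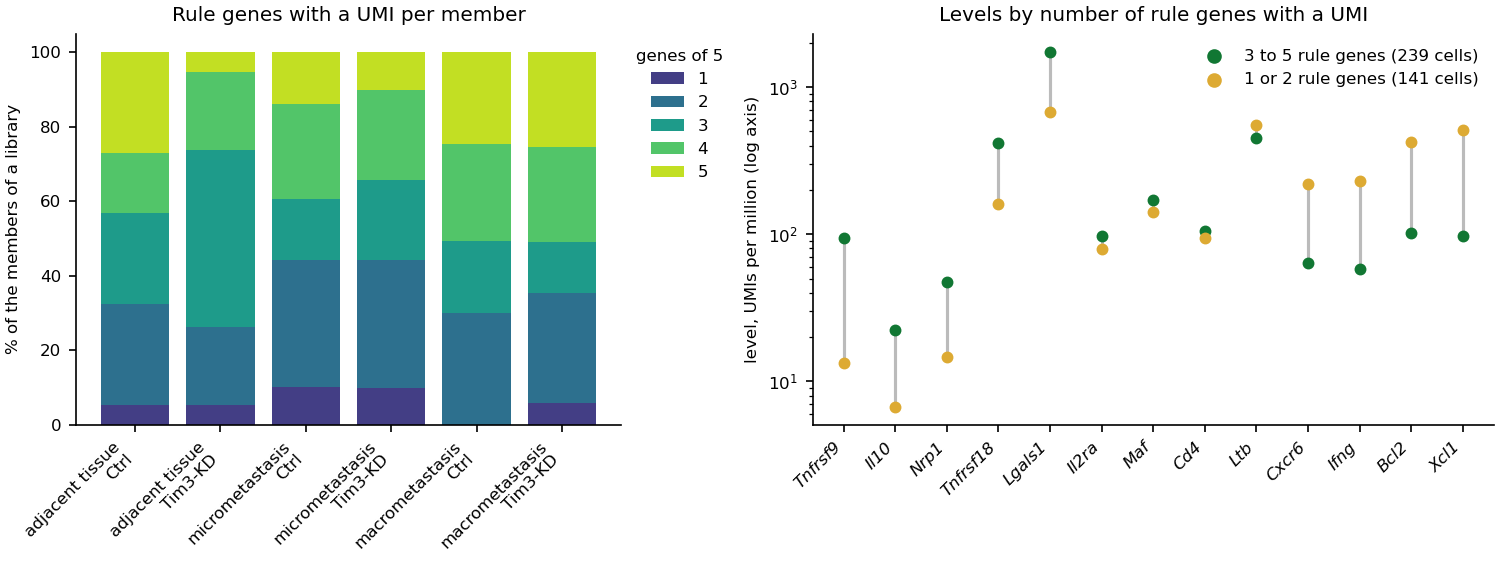
Left, the share of members of each library (bars, in percent) with a UMI of 1, 2, 3, 4 or 5 of the rule genes; right, levels of genes outside the rule (CPM, log axis, 1 point a class, the pair joined by a line) in the 239 members with 3 or more rule genes and the 141 with 1 or 2. Members with 3 or more were higher in Tnfrsf9, Il10 and Nrp1, and members with 1 or 2 were higher in Xcl1, Bcl2, Ifng and Cxcr6.

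To check the name of the cells, markers that the rule did not use were measured in members, in other CD8-low T cells and in 2353 B cells, where a T cell gene gives the background of free RNA. Foxp3, Capg, Ikzf4 and Gpr83 were not analysed here, so the defining gene of regulatory T cells has no value. Cd4 (chromosome 6, 124864692 to 124888221, minus strand) was at 109 and 81.7 CPM in adjacent tissue Ctrl and Tim3-KD, at 90.7 and 88.2 in micrometastasis, and at 103 and 121 in macrometastasis. Every one of these values was above the highest level in other CD8-low T cells, 75.8 CPM. A Cd4 UMI was found in 45.3% of the members, 24.9% of other CD8-low T cells and 0.637% of B cells, at median depths of 5368, 5095 and 4161 UMIs. At 1 fixed depth of 1500 UMIs per cell, which every cell reached, these shares were 15.4%, 8.03% and 0.159%. Most members thus carried no Cd4 UMI at their depth.

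Il2ra, the alpha chain of the interleukin 2 receptor (chromosome 2, 11642807 to 11693193, plus strand), was at 44.7 and 103 CPM in adjacent tissue, at 96.6 and 136 in micrometastasis, and at 93.9 and 83.0 in macrometastasis. Other CD8-low T cells had between 16.9 and 44.7 CPM of Il2ra, and the 2 classes were level in adjacent tissue Ctrl. Tnfrsf18, the gene of GITR (chromosome 4, 156026164 to 156028895, plus strand), was at 428 and 138 CPM, 376 and 493, and 350 and 292 in the same order of libraries. In other CD8-low T cells Tnfrsf18 was between 58.5 and 123 CPM, below every library of members. Tnfrsf9, the costimulatory receptor 4-1BB, was between 70.9 and 90.5 CPM in 5 libraries and at 0 UMIs in adjacent tissue Tim3-KD, where 3 UMIs would have been 12.9 CPM. Over all libraries, Tnfrsf9 was at 73.0 CPM in members, 9.49 in other CD8-low T cells and 1.18 in B cells.

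**Figure D2:**
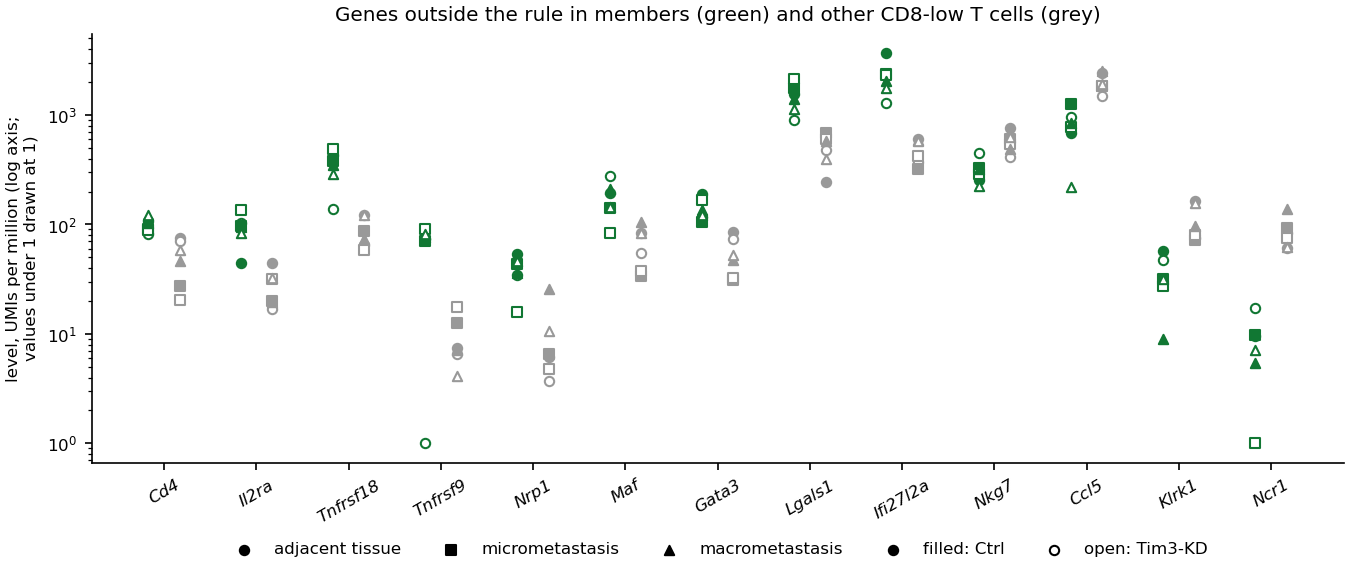
Level (CPM, log axis) of 13 genes in each of the 6 libraries, in members (green) and in other CD8-low T cells (grey), with a shape for each site, filled for Ctrl and open for Tim3-KD, and values under 1 drawn at 1. Tnfrsf18 and Cd4 were higher in members in every library, whereas Tnfrsf9 was at 0 in members of the adjacent Tim3-KD library.

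The same 2 classes were then compared over the programmes of CD4 T cells. This is the contrast that the rule itself used, so the counts are a description from which nothing is read. Among 1251 genes of all 3 matrices with at least 50 UMIs, 104 were at least 2-fold higher in members (8.31%) and 151 at least 2-fold lower (12.1%), with a median log2 ratio of 0.05. The lists are counted over the genes that passed this filter. Of 10 genes of the TNF receptor and Cd28 families and their partners, 6 were at least 2-fold higher (Tnfrsf9, Tnfrsf18, Cd5, Cd6, Slamf1 and Slamf6) and none lower. Cd28 itself was at 334 CPM against 207, and Cd27 at 155 against 96.9. Of 5 other genes of regulatory T cell identity, Il2ra, Nrp1 and Cd83 were at least 2-fold higher. Nrp1, a semaphorin co-receptor, was at 39.1 CPM against 10.6 and was higher in members in all 6 libraries.

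Of 9 genes of the effector and tissue programme, 4 were at least 2-fold higher and Gzmb, a cytotoxic protease, was lower, at 125 CPM against 293. Il10, an immunosuppressive cytokine, had 53 UMIs in members and 4 in other CD8-low T cells, or 18.3 and 0.452 CPM. These UMIs came from 5.26% of the members, and 27 of them were in macrometastasis Tim3-KD and 16 in macrometastasis Ctrl. Maf, a factor that drives Il10, was at 164 CPM against 65.9, and Gata3, the factor of type 2 responses, at 136 against 48.9. Rora, a nuclear receptor of tissue lymphocytes, was at 312 against 89.5 CPM. Lgals1, which encodes the lectin galectin 1, was between 899 and 2129 CPM in members and between 246 and 682 in other CD8-low T cells. Maf, Gata3, Rora and Lgals1 were each higher in members in all 6 libraries.

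Of 11 interferon-stimulated genes, 3 were at least 2-fold higher and 1, Ly6c2, lower, at 29.7 CPM against 120. Ly6c2 is uncertain, since a feature that joins Ly6c1 and Ly6c2 held 0 UMIs over all cells of micrometastasis Ctrl and 25578 in Tim3-KD. Ifi27l2a was at 3662 and 1295 CPM in adjacent tissue Ctrl and Tim3-KD, at 2383 and 2330.4 in micrometastasis, and at 2042 and 1771 in macrometastasis, against 320.5 to 604 in other CD8-low T cells. Ly6a, the gene of Sca-1, was at 50.8 CPM against 9.04, and Ifit1, an antiviral protein, at 22.8 against 8.59. Isg15 and Igtp differed less between the classes, at 94.7 against 77.5 CPM and at 52.9 against 44.9 CPM.

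Genes of Th1, NK and naive cells were counted in the same way. Of 10 Th1 genes, none was at least 2-fold higher and 4 were lower: the chemokine genes Ccl3, Ccl4 and Ccl5, and Ifng, the gene of interferon gamma, at 102 CPM against 237. All 6 genes of NK cells and ILC1 that passed the filter (Ncr1, Klre1, Klrk1, Eomes, Gzma and Prf1) were at least 2-fold lower. Ncr1, an activating receptor that defines NK cells, was between 0 and 17.2 CPM in members and between 60.9 and 138 in other CD8-low T cells. Of 10 genes of naive and recirculating T cells, Lef1 and Igfbp4 were at least 2-fold lower, and Ccr7, the chemokine receptor that guides T cells to lymph nodes, was at 133 CPM against 146. Others of the naive list were at higher levels in members, as S1pr1, a receptor for exit from tissue, at 159 against 101, and Il7r, the interleukin 7 receptor, at 311 against 234.

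Genes at the far ends of this ratio included some of other cell types. The highest ratios outside the rule were those of Il10, Sapcd1, Tnfrsf9, Bcl2l15 and Ly6a. Sapcd1 was at 16.9 CPM in members, 1.81 in other CD8-low T cells and 103 in B cells. Cd83 was at 31.8, 10.3 and 463 CPM, Ighm, the heavy chain of IgM, at 151, 42.8 and 2242, and Cd79b, a partner of Cd79a, at 7.26, 5.20 and 831 in the same order. Summed over 6 genes of B and plasma cells, members had between 138 and 393 CPM per library and other CD8-low T cells between 37.3 and 135, and the part of this in the ratios was not tested. At the low end, Oit3 had 0 UMIs in members and 50 in other CD8-low T cells, and Spp1, Fkbp11 and Dmkn had 4, 5 and 5 UMIs against 314, 372 and 249. With the rule on recovered UMIs, the log2 ratios of Fkbp11 and Dmkn turned to 0.80 and 0.32, and without cycling cells that of Fkbp11 turned to 1.02. Of the 15 genes of lowest ratio, Ncr1, Klre1 and Klri2 were lower in members in all 6 libraries.

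Members with many and with few rule genes were set side by side as a description, from which nothing is read, since the split uses the rule's own genes and detection rises with depth. The genes given were chosen after their values were seen. The 239 members with 3 or more rule genes were deeper, with a median of 6425 UMIs, than the 141 with 1 or 2, with 4535. Tnfrsf9 was at 93.8 CPM in the first and 13.4 in the second. Nrp1 was at 47.6 against 14.7 CPM, Il10 at 22.4 against 6.68, and Tnfrsf18 at 417 against 162. Cd4 was at 105 against 94.9 CPM and Maf at 172 against 142 CPM.

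Other genes were at higher levels in the members with 1 or 2 rule genes. Xcl1, a chemokine of NK and CD8 T cells, was at 511 CPM in them and at 97.5 in members with 3 or more. Cxcr6, a receptor of liver-resident T and NKT cells, was at 219 against 63.4 CPM, Ifng at 229 against 58.3, Ccl5 at 1485 against 445, and the survival gene Bcl2 at 424 against 103. Nkg7, a protein of cytotoxic granules, was at 535 against 210 CPM. In adjacent tissue the members with 3 or more rule genes also had 153 and 197 CPM of Cxcr6, in Ctrl and Tim3-KD, against 20.2 and 9.74 in micrometastasis. The rule thus held both cells with most of its genes and cells that passed on 1 or 2.

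This was also seen at the threshold. Within 0.2 of the threshold, 37 cells lay just inside and 44 just outside. Of those inside, 10 had a UMI of 1 rule gene, 21 of 2 and 6 of more, and of those outside 15, 26 and 3. Tnfrsf18 was at 137 CPM inside and 127 outside, Cd4 at 74.2 and 46.0, Il2ra at 85.3 and 66.2, and Nkg7 at 712 and 469.

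A UMI of Ikzf2 was found in 236 members. This split, too, uses a gene of the rule, detection rises with depth, and the depths of its 2 groups are not given here. No set of genes was fixed in advance for it, so it is a description from which nothing is read. Members with an Ikzf2 UMI had 94.0 CPM of Tnfrsf9 against 30.4 in the 144 members without one, 49.6 against 17.8 of Nrp1, and 111 against 56.6 of Il2ra. The members without an Ikzf2 UMI had more of Ccr7, at 238 against 82.1 CPM, of Bcl2, at 324 against 118, and of Tbc1d4, a Rab GTPase-activating protein, at 116 against 24.8. Trdc, the constant gene of the delta chain of the T cell receptor, was at 59.4 CPM in members with an Ikzf2 UMI and at 3.14 in those without. A Trdc UMI was found in 19 members (5.00%), against 9.25% of other CD8-low T cells and 0.170% of B cells. The level of Trdc differed less than this share, at 40.8 CPM in members and 45.4 in other CD8-low T cells. Of the 19 members with a Trdc UMI, micrometastasis Ctrl gave 8, the adjacent Tim3-KD library 3, and the other 4 libraries 2 each. In 18 members, at least 10 UMIs came from 22 genes of neutrophils, macrophages, dendritic cells, B cells, endothelial cells and hepatocytes.

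Some members carried many UMIs of cell cycle genes. A cell was called cycling with at least 10 UMIs over 10 cell cycle genes, which 36 members reached. The counts were 1 of 37 and 0 of 19 in adjacent tissue Ctrl and Tim3-KD, 5 of 79 and 10 of 70 in micrometastasis, and 9 of 73 and 11 of 102 in macrometastasis. As shares these were 2.7% and 0%, 6.33% and 14.3%, and 12.3% and 10.8%, and the interval of adjacent tissue Tim3-KD reached 17.6%. The intervals of micrometastasis Ctrl (2.09% to 14.2%) and Tim3-KD (7.07% to 24.7%) overlapped. Among other CD8-low T cells, 1 of 104 and 2 of 77 were cycling in adjacent tissue Ctrl and Tim3-KD. In micrometastasis these were 17 of 229 and 15 of 157, and in macrometastasis 12 of 265 and 8 of 303. Whether the classes differ was not tested. Most members had none of these UMIs: 251 had 0, 93 had 1 to 9, and the highest had 331. That highest member, in macrometastasis Tim3-KD, held 68064 UMIs and had 344 UMIs of the genes of other cell types. A cycling member of micrometastasis Ctrl had 505 such UMIs and one of micrometastasis Tim3-KD had 1585. Most cycling members had fewer than 10 of them. Cells that join a T cell with another cell were not told apart here, and no cycling count without such members is given. Cycling members were deeper, with a median of 15262 UMIs against 5099. They had 3020.1 CPM of Lgals1 against 988 in the other members and 11.6 against 133 of Cxcr6, whereas Tnfrsf9 was at 73.9 against 72.7 CPM.

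**Figure D3:**
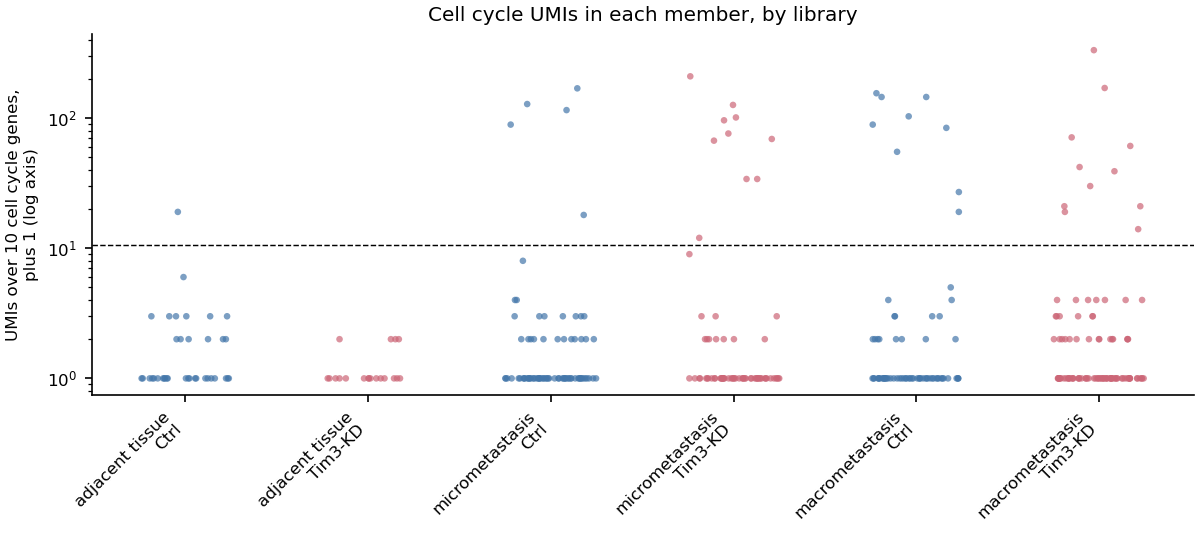
UMIs over 10 cell cycle genes in each member (points, log axis with 1 added) by library, with the line at 10 UMIs above which a member was called cycling. Most members were at 0, and the micrometastasis Tim3-KD and both macrometastasis libraries held 9 to 11 cells above the line.

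Next, the shares of members were compared between the lines at each site. In adjacent tissue, members made up 2.05% of all Ctrl cells (1.45% to 2.82%) and 3.51% of all Tim3-KD cells (2.12% to 5.42%). T cells were 176 of 1803 cells in that Ctrl library and 123 of 542 in that of Tim3-KD. The latter also had 0 UMIs of Elane and Ltf, so these shares are taken over unlike mixtures of cells. In micrometastasis the shares were 1.55% (1.23% to 1.92%) and 1.36% (1.06% to 1.72%). In macrometastasis they were 1.49% (1.17% to 1.86%) and 1.85% (1.51% to 2.25%). The difference between Tim3-KD and Ctrl was 1.45 percentage points in adjacent tissue (-0.0114 to 3.44), -0.186 in micrometastasis (-0.657 to 0.281) and 0.368 in macrometastasis (-0.130 to 0.863). Each interval includes 0. The intervals cover counting error only, and with 1 library a line, a difference between the lines cannot be told from one between libraries.

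Of the T cells, members were 21.0% for Ctrl and 15.4% for Tim3-KD in adjacent tissue, 17.7% and 18.2% at the micrometastatic site, and 15.4% and 17.9% at the macrometastatic site. The differences of Tim3-KD from Ctrl were -5.58 points (-14.1 to 3.58), 0.508 (-4.68 to 5.79) and 2.49 (-2.09 to 6.98), and each interval includes 0. Adjacent tissue thus had the reverse order of the lines over all cells and over T cells, and its libraries differed in their share of T cells. Between the metastatic sites, which share these libraries, members of Tim3-KD were 0.493 points higher in macrometastasis over all cells (0.0117 to 0.975), and -0.287 points apart over T cells (-5.38 to 4.59). In Ctrl the same differences were -0.0613 (-0.544 to 0.424) and -2.27 points (-7.10 to 2.53). Scores were scaled within the matrix of each site, so the rule can cut at another level of expression at each. These differences between sites were not repeated with the rule on 1 scale for all libraries.

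**Figure D4:**
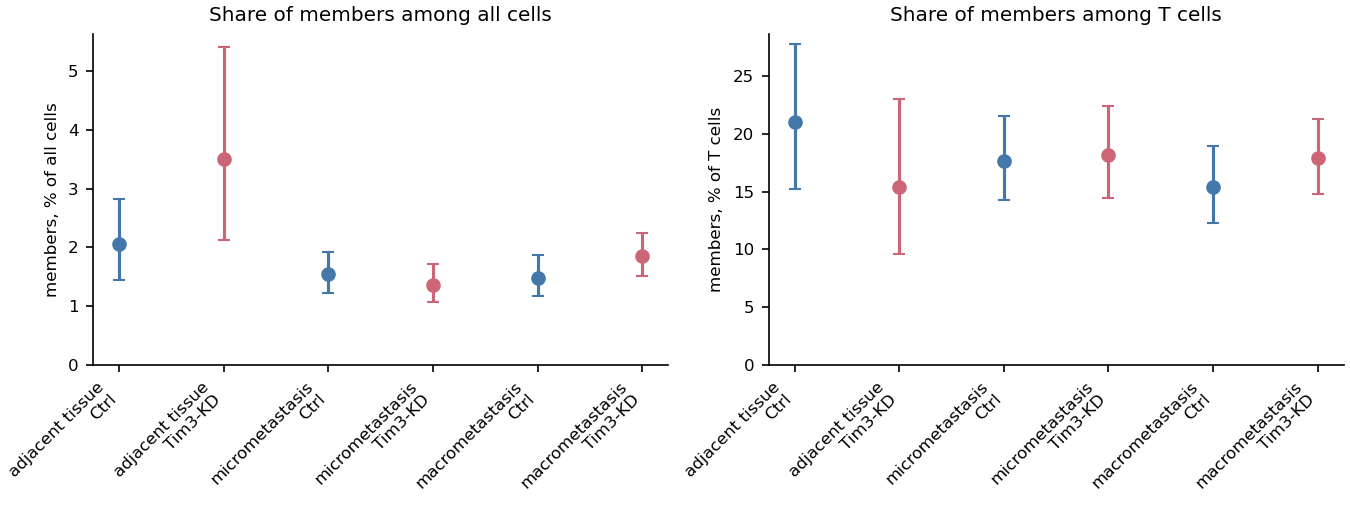
Share of members (percent, points, with exact 95% binomial intervals as bars) among all cells and among T cells, by site and line. The intervals of Ctrl and Tim3-KD overlap at each site, and the shares of all cells lie between 1.36% and 3.51%.

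To see whether members differed between the lines, each gene of a matrix with at least 30 UMIs over the members of both libraries was given the ratio of its CPM in Tim3-KD to that in Ctrl. In micrometastasis, 42 of 738 genes were at least 2-fold higher in Tim3-KD (5.69%) and 96 at least 2-fold lower (13%), and the median log2 ratio was -0.23. With ratios taken relative to their trimmed mean, 61 were higher and 59 lower, so the excess of lower genes was not kept under that scaling. With 1 library a line, these counts have no replicate check.

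Markers of the label were measured first. Cd4 was at 88.2 CPM in Tim3-KD and 90.7 in Ctrl, a ratio of 0.973 (0.619 to 1.52). Tnfrsf18 was at 493 and 376 CPM (1.31, 1.07 to 1.60), Il2ra at 136 and 96.6 (1.41, 0.948 to 2.09), and Tnfrsf9 at 90.5 and 70.9 (1.28, 0.793 to 2.06). Of 10 genes of the TNF receptor and Cd28 families, 1 was at least 2-fold lower, Cd27, a costimulatory receptor, at 86.0 and 173 CPM. Of 8 genes of the effector and tissue programme none was 2-fold apart. Of 3 identity genes past the filter, Rgs1, a regulator of chemokine receptor signals, was lower at 321 and 855 CPM (0.376, 0.309 to 0.455), with 67.1% and 69.6% of the members carrying a UMI. Nrp1 was at 15.8 and 43.4 CPM from 7 and 22 UMIs, under the filter (0.365, 0.132 to 0.885).

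Of 10 Th1 genes, 3 were at least 2-fold lower in micrometastasis Tim3-KD and none higher. Ccl4 was at 204 CPM in Tim3-KD and 1044 in Ctrl, but 62.2% and 59.8% of these UMIs came from 1 cell of each library. Ccl3 was alike, at 70.1 and 416 CPM with 74.2% and 64.0% from 1 cell. Cxcr3, a chemokine receptor that guides Th1 cells, had 12 and 29 UMIs, spread over 14.3% and 15.2% of the members (0.475, 0.221 to 0.960).

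Ltb encodes lymphotoxin beta, a cytokine of lymphoid tissue (chromosome 17, 35194439 to 35196320, plus strand). Members had 35 UMIs of Ltb in micrometastasis Tim3-KD and 341 in Ctrl, or 79.2 and 672 CPM, a ratio of 0.118 (0.0807 to 0.167). A UMI was found in 31.4% and 93.7% of the members. Ltb was at 198 and 662 CPM in members of adjacent tissue Ctrl and Tim3-KD, and at 726 and 466 in macrometastasis, so micrometastasis Tim3-KD was the lowest of the 6 libraries. Other classes had a like ratio, and Ltb was at 0.138 of Ctrl in other CD8-low T cells, 0.146 in CD8 T cells, 0.117 in B cells and 0.178 over all cells.

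Several other genes named by their ratio had most of their UMIs in 1 cell. Prtn3, a neutrophil protease, had 640 UMIs in members of Tim3-KD and 13 in Ctrl, and 96.4% of the first came from 1 cell. H2-Aa, an MHC class II gene of antigen-presenting cells, had 124 UMIs in Tim3-KD, all in 1 cell, and 15 in Ctrl, and without the member with the most UMIs in each library its log2 ratio turned to -4.04. Ifitm6 had 23 UMIs in Tim3-KD against 223 in Ctrl, and 96.0% of the latter came from 1 cell, without which its log2 ratio turned to 0.79. Csf1, a growth factor of macrophages, had 2 UMIs in Tim3-KD and 44 in Ctrl, of which 54.5% came from 1 cell. H2-Ab1, the partner of H2-Aa, Ms4a6c and the histone gene H2bc4 completed the highest 6, H2bc4 with a UMI in 20.0% and 7.59% of the members. Cd7, a T cell surface protein, had 4 and 52 UMIs, in 5.71% and 16.5% of the members. Ascc3, a helicase of DNA repair, had 3 and 35 UMIs in 4.29% and 31.6% of the members (0.0984, 0.0194 to 0.312), against a ratio of 0.651 in other CD8-low T cells.

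Of 15 proliferation genes, 5 were at least 2-fold higher in micrometastasis Tim3-KD and none lower, with a median log2 ratio of 0.69 against -0.23 over all genes tested. H1f5, a linker histone of dividing cells, was at 536 CPM in Tim3-KD and 114 in Ctrl, Mki67 at 283 and 104, and Top2a, a DNA topoisomerase, at 269 and 124. In macrometastasis the order was the reverse, with Mki67 at 126 CPM in Tim3-KD and 208 in Ctrl and Top2a at 117 and 215. There, 2 of 14 genes, Cenpf and Rrm2, were at least 2-fold lower and none higher, and the median was -0.64 against -0.14. The share of cycling members had the same order as these genes at both sites, at 14.3% in Tim3-KD and 6.33% in Ctrl in micrometastasis and at 10.8% and 12.3% in macrometastasis. Without the cycling members, the log2 ratio of H1f5 in micrometastasis was 0.21 in place of 2.22, and that of Rrm2 turned at both sites, to -1.75 in micrometastasis and 2.17 in macrometastasis. Rrm2 had only 40 and 16 UMIs in Tim3-KD and Ctrl in micrometastasis, and 31 and 44 in macrometastasis, before this removal. As a gene of the cycling call it loses UMIs by the removal itself, so its turn is a description only.

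In macrometastasis, 31 of 789 genes were at least 2-fold higher in Tim3-KD (3.93%) and 41 at least 2-fold lower (5.2%), with a median log2 ratio of -0.14, and 44 and 26 relative to the trimmed mean. None of the 5 identity genes, of the 10 genes of the TNF receptor and Cd28 families or of the 5 genes of inhibitory receptors was 2-fold apart. Cd4 was at 121 CPM in Tim3-KD and 103 in Ctrl (1.18, 0.842 to 1.66), Il2ra at 83.0 and 93.9 (0.885, 0.609 to 1.29), and Tnfrsf18 at 292 and 350 (0.833, 0.688 to 1.01). Of 9 effector genes, 2 were lower. Areg, the growth factor amphiregulin, was at 21.4 and 56.0 CPM (0.382, 0.201 to 0.704), and Gzmb at 41.5 and 93.9 (0.442, 0.280 to 0.692), with 46.2% of the Ctrl UMIs of Gzmb in 1 cell.

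Of 10 activation genes in macrometastasis, 2 were at least 2-fold higher and none lower. Myc, a factor of growth, had 26 UMIs in Tim3-KD and 5 in Ctrl, in 19.6% and 6.85% of the members (3.42, 1.29 to 11.4). Egr1, an immediate early factor of receptor signals, was at 128 and 56.0 CPM (2.29, 1.52 to 3.53), and at 83.7 and 152 in micrometastasis. H2-Aa had the highest ratio in macrometastasis, with 458 and 16 UMIs, but 6.86% of the members of Tim3-KD carried it. Cst3, a protease inhibitor of myeloid cells, was at 1338 and 298 CPM, with 51.8% of the Tim3-KD UMIs in 1 cell. Without the members with many UMIs of other cell types, the log2 ratios of H2-Aa and Cst3 were -1.63 and -0.36. Ptpra, a receptor phosphatase, had 32 and 6 UMIs in 18.6% and 8.22% of the members (3.50, 1.45 to 10.3). Ccl5 was lower, at 219 and 838 CPM, with 58.4% of the Ctrl UMIs in 1 cell, and at a rule threshold of 2 its log2 ratio turned to 1.24. Anxa1, the gene of annexin A1, was at 35.6 and 116 CPM (0.308, 0.193 to 0.482), and at 0.341 of Ctrl in other CD8-low T cells. Hspa4l, Aida and Tcf20, each with at most 27 UMIs in a library, had ratios between 0.316 and 0.344.

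The interferon-stimulated genes were then followed over both sites, whose pairs of libraries are separate. Igtp, a GTPase induced by interferon gamma (plus strand of chromosome 11, 58199556 to 58207591), was at 22.6 CPM in micrometastasis Tim3-KD and 61.1 in Ctrl, and at 36.8 and 97.5 in macrometastasis. The ratios were 0.370 (0.162 to 0.775) and 0.377 (0.234 to 0.597), and no single member held more than 20.0% of its UMIs in a library. Isg15, a ubiquitin-like protein of the interferon response (chromosome 4, 156199424 to 156200818, minus strand), was at 47.5 and 146 CPM in micrometastasis and at 72.4 and 150 in macrometastasis. Its ratios were 0.326 (0.191 to 0.535) and 0.483 (0.341 to 0.680). In other CD8-low T cells the ratios of Igtp were 0.770 and 1.67 and those of Isg15 were 1.44 and 0.997, and whether the classes differ was not tested. Igtp and Isg15 were the 2 of 8 interferon-stimulated genes past the filter in micrometastasis, and of 10 in macrometastasis, that were at least 2-fold lower, and none was higher. Over all genes tested, 13% and 5.2% were at least 2-fold lower at these sites. The median log2 ratio of the list was -0.18 in micrometastasis, against -0.23 over all genes. In macrometastasis it was -0.41 against -0.14. In adjacent tissue the Tim3-KD library held 19 members, under the least set for a comparison of genes, so no order is read there. Isg15 was at 30.1 CPM in Tim3-KD and 89.4 in Ctrl of adjacent tissue, and Igtp at 55.9 and 44.7.

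**Figure D5:**
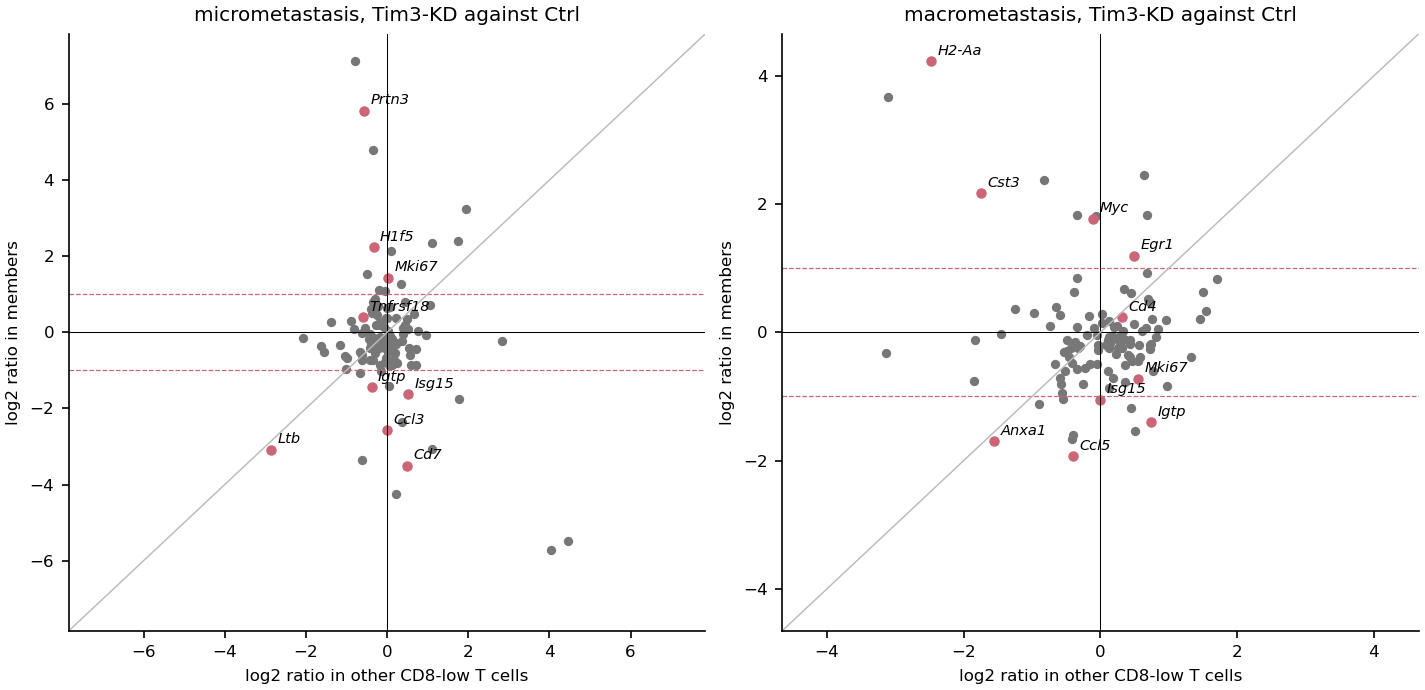
Log2 ratio of Tim3-KD to Ctrl in members (vertical axis) against that in other CD8-low T cells (horizontal axis), 1 point for each gene of the lists or named by its ratio that had at least 30 UMIs in both classes and a UMI in all 4 sums, with dashed lines at 2-fold and some genes labelled in red, in micrometastasis and macrometastasis. Ltb lay low in both classes in micrometastasis, whereas Igtp and Isg15 lay low in members at both sites.

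Finally, macrometastasis was set against micrometastasis within each line, on the libraries already used above. In Ctrl, 31 of 553 genes were at least 2-fold higher in macrometastasis (5.61%) and 47 at least 2-fold lower (8.5%), with a median log2 ratio of -0.02. None of the 5 identity genes or of the 10 genes of the TNF receptor and Cd28 families was 2-fold apart in Ctrl. Cxcl10, a chemokine induced by interferon, had 65 UMIs in macrometastasis and 10 in micrometastasis, in 20.5% and 10.1% of the members (5.96, 3.04 to 13). Ptger4, a receptor of prostaglandin E2, was found in 32.9% and 8.86% of the members (3.97, 1.89 to 9.32), and its ratio was 0.898 in other CD8-low T cells. Runx2, a transcription factor, was found in 27.4% and 8.86% (3.55, 1.60 to 8.94). Among the lower genes, Ifitm6, Ccl3, Ccl4, Ier3 and Csf1 rested on micrometastasis Ctrl cells that held between 47.1% and 96.0% of the UMIs of the gene.

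In Tim3-KD, 59 of 591 genes were at least 2-fold higher in macrometastasis (9.98%) and 48 at least 2-fold lower (8.12%), with a median of 0.13. The higher genes included Ltb and Gimap1, which were low in the micrometastasis Tim3-KD library. Gimap1, a GTPase of lymphocyte survival, was at 172 CPM in macrometastasis and 36.2 in micrometastasis (4.75, 2.83 to 8.54), and its ratio over all cells was 10.6. B3gnt2, a glycosyltransferase, had 31 UMIs in members of macrometastasis and 0 in micrometastasis, at least 5.42-fold higher against a floor of 3 UMIs in that library. Over all cells of the Tim3-KD libraries, B3gnt2 was at 26.5 CPM in macrometastasis and 0.525 in micrometastasis. Of 5 identity genes, Nrp1 and Cd83 were at least 2-fold higher, Nrp1 at 46.3 and 15.8 CPM (2.92, 1.29 to 7.74). Il10 was at 32.0 and 9.05 CPM from 27 and 4 UMIs. Cxcr3 was at 94.9 and 27.1 CPM (3.50, 1.89 to 7.05), and at 125 and 57.2 in the same sites of Ctrl. Of 14 proliferation genes, 6 were at least 2-fold lower in Tim3-KD and none in Ctrl, where H1f5 and Rrm2 were higher. Chil3, Prtn3, Serpinb1a and Anxa1 were among the lowest ratios of Tim3-KD, and 1 micrometastasis member held between 50.8% and 96.4% of the UMIs of each. Without the top member of each library, the log2 ratio of Serpinb1a turned to 0.33.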

How the data were processed

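CD45+ cells were profiled with 10x 3' v3.1 chemistry in 6 libraries, 1 for each group. Per the study's methods, the authors trimmed reads with Trim Galore 0.4.3, mapped them to GRCm38 with STAR 2.7.7a, counted UMIs over exons and introns, kept cells of over 1000 UMIs and over 1000 genes, and removed doublets with scrublet at a score of 0.15. The deposited values are scores: log-normalised values of highly variable genes, with depth regressed out and scaled within each of 3 matrices, capped at 10. Features that join several genes in 1 name were left out of the counts, which was decided after their values were seen. Of these features, 39 of the adjacent matrix, 9 of the micrometastasis matrix and 10 of the macrometastasis matrix held 0 UMIs in 1 library and at least 100 in the other, among them Ly6c1 with Ly6c2 and groups of H2ac histones. Whether this moved the values of single genes of these families was not tested. No column of another series had to be left out (0).

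The scores were inverted to whole UMIs, and at least 99.9965% of values came within 0.05 of a whole number. Between 0.1436% and 0.1604% of values lay at the cap and are lower bounds. On simulated data (1200 genes, 2345 cells of adjacent tissue depth), 100% of UMIs of values below the cap were recovered. These data were made with the model that the inversion assumes, so they do not check that model. The planned UMI sums therefore rest on this recovery. A doublet score computed in the way of scrublet served as an alternative. The scores also served for the rule.

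Levels are UMI sums over all UMIs of the same cells (CPM). Shares have exact binomial (Clopper-Pearson) intervals, differences of shares have Newcombe intervals, and ratios have exact conditional binomial intervals, all at 95% and without replicates. They cover counting error only, and the cells of a library are not independent animals. Ratios between libraries used genes with at least 30 UMIs over both, and counts used a 2-fold size with 0.5 UMIs added to each sum. Named genes were the rule genes, genes of the lists, the 6 highest and 6 lowest ratios with a UMI in at least 10% of the members of 1 library, and the 15 highest and 15 lowest ratios against other CD8-low T cells. Genes of the rule, mitochondrial, ribosomal protein, haemoglobin, variable receptor and Y-linked genes, Xist and unnamed models were left out of these. The members and lists were chosen with earlier results of these data known. Software was Python 3.11.15 with numpy 2.4.6, scipy 1.17.1, pandas 2.3.3, scikit-learn 1.9.0 and matplotlib 3.10.9.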

Additional observations from a re-analysis of the deposited data

Results flagged for a closer look

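Among 432 genes that passed the filter of 30 UMIs at both metastatic sites, 5 were at least 2-fold higher in Tim3-KD members at one site and at least 2-fold lower at the other, while 6 were higher at both and 9 lower at both. The difference between the sites was not tested. The complement genes of macrophages had log2 ratios (0.5 UMIs added) in micrometastasis and macrometastasis of -5.40 and 2.31 for C1qa, -7.11 and 2.38 for C1qb, and -6.40 and 2.67 for C1qc. C1qb and C1qc were at 0 UMIs in micrometastasis Tim3-KD, so their ratios there depend on the UMIs added. In micrometastasis Ctrl, 1 cell held 95.9%, 97.5% and 97.9% of the UMIs of the 3 genes, and in macrometastasis Tim3-KD 1 cell held 87.3%, 93.3% and 90.7%. Without the members with many UMIs of other cell types, the ratios in macrometastasis turned to -0.69, -1.61 and -0.17, and at most 5 UMIs of each gene were left in a micrometastasis library.

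The cell cycle genes had the reverse order. H4c4, a histone, had log2 ratios of 1.40 and -1.26, and Rrm2, a subunit of ribonucleotide reductase, of 1.49 and -1.10. Without the cycling members, H4c4 was at -0.34 and -0.76 and Rrm2 at -1.75 and 2.17, so H4c4 turned in micrometastasis and Rrm2 at both sites. Rrm2 is itself a gene of the cycling call, so nothing is read from its turn.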

How the results depend on the processing

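Of the counts and shares, 150 values under alternatives stayed within 1.5 times the count, or within the interval of the share, and 32 did not. Of the single genes, 964 kept their direction and size class, 25 kept their direction and fell under 2-fold, and 19 reversed. The alternatives without cells with many UMIs of other cell types and without cycling cells were chosen after seeing the data. Where a value below differs, the cause was not tested, other than that a stricter or looser filter tests fewer or more genes.

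Tim3-KD against Ctrl gave 99 higher and 304 lower genes in micrometastasis at 10 UMIs and 14 and 22 at 100 UMIs, and 111 and 137 in macrometastasis at 10 UMIs and 8 and 6 at 100 UMIs. Macrometastasis against micrometastasis gave 102 and 151 in Ctrl and 155 and 102 in Tim3-KD at 10 UMIs, and 3 and 16 in Ctrl and 7 and 20 in Tim3-KD at 100 UMIs. Relative to the trimmed mean, 59 genes were lower in micrometastasis and 26 in macrometastasis. Without cells with many UMIs of other cell types, 61 were lower in micrometastasis, 18 higher in macrometastasis and 29 lower between sites in Ctrl. Without cycling cells, 21 were higher and 52 lower in micrometastasis, 25 lower in macrometastasis, 11 higher between sites in Ctrl, and 35 higher and 28 lower in Tim3-KD. With doublet scores of at most 0.15, 18 were higher between sites in Ctrl, and at a rule threshold of 2, 28 were lower in Tim3-KD. Against other CD8-low T cells, 73 genes were lower in members without cells with many UMIs of other cell types and 96 at 100 UMIs. Leaving out 1 library at a time gave between 91 and 123 higher and between 94 and 161 lower genes, and the lowest count of lower genes was that without macrometastasis Ctrl.

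Log2 ratios that reversed were those of Ifitm6 in micrometastasis (1.54 at a threshold of 2, 1.49 without cells of other types, 1.53 without cycling cells and 0.79 without the top cell), H2-Aa in micrometastasis (-4.06 without cells of other types and -4.04 without the top cell), and, in macrometastasis, Ccl5 (1.24 at a threshold of 2), H2-Aa (-1.63) and Cst3 (-0.36), the latter pair without cells of other types. Serpinb1a between sites in Tim3-KD was at 1.28 at a threshold of 2, 1.12 at the doublet limit, 0.36 without cells of other types, 0.89 without cycling cells and 0.33 without the top cell. Against other CD8-low T cells, Fkbp11 was at 0.80, Dmkn at 0.32 and Mpo at 2.41 with the rule on recovered UMIs, and Fkbp11 at 1.02 and Mpo at 0.20 without cycling cells.

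No paired analysis was possible because the groups compared at a site were 1 library each and share fewer than 2 replicate numbers. The lines were not tested across the 3 sites. The share of members with a Foxp3 UMI was not run, since Foxp3 was not analysed here, and no result between groups has a replicate check.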
